A study of Rattus norvegicus with 24 samples.

Results

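Myostatin (Mstn), follistatin (Fst) and the anti-Müllerian hormone receptor type 2 (Amhr2) are 3 genes of the transforming growth factor beta (TGF-beta) family and its regulation. They were found on the arrays by their gene symbol in the platform annotation, which gave 3 of the 4736 named genes on the array and 4 of its 8740 probe sets other than controls: 1 for Mstn (AF019624_at), 2 for Fst (rc_AA858520_at and rc_AA858520_g_at) and 1 for Amhr2 (U42427_at). A probe set combines several short probes of a transcript into a single reading per array. Both Fst probe sets were designed on the same expressed sequence tag, so they are not independent measurements. The genes were chosen with their levels in these samples known: Mstn and Amhr2 for their difference between muscles, and Fst for its difference between 30 and 6 months in the limb muscle. All differences between muscles for Mstn and Amhr2 are therefore given as a description with no test. The same holds for all age differences of Fst in EDL, its muscle differences at 6 and 30 months and over the mean of ages, and the comparison of its age changes between muscles. Age differences of Mstn and Amhr2 use the same arrays but not the comparison that chose them, and were tested.

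The rat (Rattus norvegicus) samples came from extraocular muscles (EOM), which rotate the eyeball, and from extensor digitorum longus (EDL), a toe extensor of the hindlimb. Each muscle was profiled at 6, 18 and 30 months of age with 4 arrays per group, 24 arrays in all, on Affymetrix Rat Genome U34 chips. Each array measured RNA pooled from 4 animals, so the spread between arrays is a spread between pools rather than between single rats. No treatment or mutation is named for any group, and strain and sex are not given in the sources used here.

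Myostatin is a secreted ligand made mainly by skeletal muscle that restrains muscle growth. It is made as a precursor, is cleaved by proprotein convertases, binds activin type 2 receptors and signals through the transcription factors Smad2 and Smad3 with Smad4. Follistatin is a secreted protein that binds myostatin and activins and keeps them from their receptors. Amhr2 is the receptor that binds anti-Müllerian hormone (Amh), and it is best known from the gonads, where it acts through the Smads of the bone morphogenetic protein (BMP) branch.

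Array medians ran from 89.7 to 136.8 arbitrary intensity units, and precision is limited by having 4 arrays per group. Levels were compared with limma on log2 intensities, with low values raised to each array's 25th percentile (the floor, 21.4 to 34.5 units), and a difference is called where its adjusted p is under 0.05. All 4 probe sets passed the filter on low values. The listed skeletal muscle fibre markers were above the array median in every group for 7 of 7 measured genes. The 4 extraocular markers summed to 56649 to 90744 units on EOM arrays and 1421 to 6464 units on EDL arrays. Replicate 1 of EDL at 30 months had the lowest median rank correlation with its group, 0.873, against 0.915 to 0.962 for the other 23 arrays. On the EDL arrays the 3'/5' ratio of beta-actin, a measure of RNA integrity that is larger in degraded RNA, was 1.58 to 3.54 in replicates 1 and 2. It was 1.14 to 1.78 in EDL replicates 3 and 4, and 1.13 to 1.62 over all EOM arrays. The part of RNA integrity in the differences between the muscles was not tested.

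Mstn was higher in EOM than in EDL at every age. In EOM its intensities were 186.9, 281.0, 236.9 and 268.6 units at 6 months, 308.3, 356.5, 450.0 and 339.3 units at 18 months, and 289.0, 412.2, 308.0 and 351.8 units at 30 months. In EDL they were 147.2, 59.6, 109.0 and 140.8 units at 6 months, 83.5, 140.8, 167.2 and 89.7 units at 18 months, and 84.8, 69.9, 177.9 and 114.6 units at 30 months. The lowest of the 12 EOM arrays, 186.9 units, lay above the highest of the 12 EDL arrays, 177.9 units, so the muscles did not overlap at any age.

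The EOM means of Mstn were 243 ± 42.0, 364 ± 61.0 and 340.3 ± 54.7 units at 6, 18 and 30 months, and the EDL means were 114 ± 40.02, 120.3 ± 40.5 and 112 ± 47.8 units (SD, n = 4 each). On the log2 scale EOM minus EDL was 1.495 (SE 0.18) as the mean over ages, a 2.82-fold difference. By age it was 1.16 at 6 months, 1.64 at 18 months and 1.68 at 30 months (SE 0.31 each), or 2.23-fold, 3.12-fold and 3.21-fold. At 30 months it was 2.16 in replicates 1 and 2 and 1.21 in replicates 3 and 4. For scale, 42.3 percent of the 5741 probe sets tested were called between the muscles in the mean over ages, 17.9 percent at 6 months, 23.4 percent at 18 months and 19.2 percent at 30 months, so a difference between EOM and EDL was common on these arrays. The share of probe sets without overlap between muscles or ages is not given here or below.

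**Figure D1:**
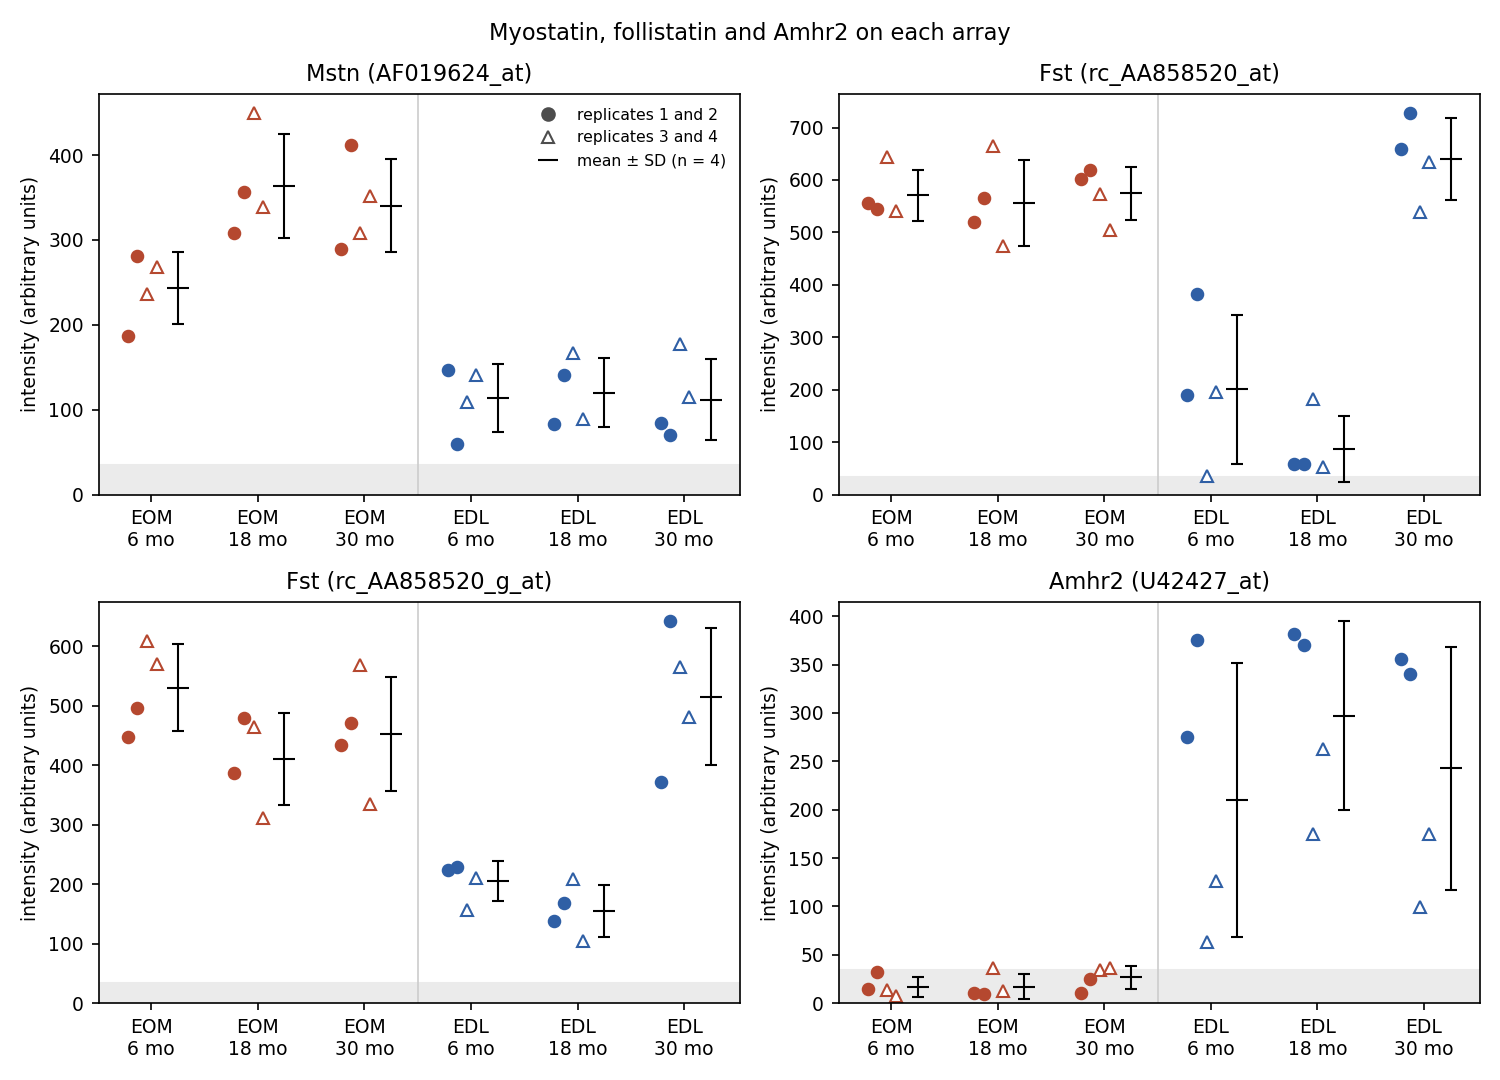
Intensity (arbitrary units, vertical axis) of the 4 probe sets on each of the 24 arrays, EOM in red and EDL in blue, by age. Filled circles are replicates 1 and 2, open triangles are replicates 3 and 4, black bars are the group mean ± SD (n = 4), and the grey band reaches the highest array floor of 34.5 units. Mstn is higher on every EOM array than on any EDL array, Fst is near its EOM level in EDL at 30 months, and Amhr2 lies at or near the floor in EOM.

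No age difference in Mstn passed the test. In EOM all 4 arrays at 18 months, and all 4 at 30 months, lay above all 4 at 6 months. The differences were 0.58 on the log2 scale for 18 against 6 months (95% interval -0.06 to 1.22, limma adjusted p = 0.999, unadjusted p = 0.0724) and 0.49 for 30 against 6 months (95% interval -0.15 to 1.13, adjusted p = 1, unadjusted p = 0.129). Of all probe sets, 0.174 percent were called for 18 against 6 months in EOM and 0.0348 percent for 30 against 6 months. These shares count calls, so they do not show how rare arrays without overlap are. The 30 and 18 month EOM arrays overlapped, with a difference of -0.09, and 0.0174 percent of all probe sets were called for that pair.

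In EDL the Mstn arrays of all 3 ages overlapped. Its difference was -0.04 on the log2 scale for 30 against 6 months (95% interval -0.68 to 0.60, limma adjusted p = 0.985) and 0.10 for 18 against 6 months (95% interval -0.54 to 0.74, adjusted p = 0.992). Set against the EDL change, the EOM change was larger by 0.53 (SE 0.44) for 30 against 6 months and 0.48 (SE 0.44) for 18 against 6 months, with an adjusted p of 0.998 for both. Thus the order of levels placed EOM at 18 and 30 months first, then EOM at 6 months, then the 3 EDL groups, and neighbours within a muscle did not differ past the threshold.

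Markers of nerve moved with Mstn between the muscles. The 4 measured Schwann cell and nerve markers, of 6 listed, summed to 4482 to 6710 units on EOM arrays and 806 to 1817 units on EDL arrays, and the neurofilament gene Nefm was at the floor on all EDL arrays at 18 months. Their part in the Mstn difference was not tested. In pooled muscle RNA, fewer cells of a type and less RNA per cell cannot be told apart.

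Fst, the myostatin antagonist, was at a similar level in EOM at all 3 ages, low in EDL at 6 and 18 months, and as high as in EOM in EDL at 30 months. On rc_AA858520_at the EOM arrays read 555.3, 544.4, 643.1 and 540.0 units at 6 months, 520.0, 565.7, 665.4 and 474.7 units at 18 months, and 602.0, 618.7, 572.9 and 504.3 units at 30 months. The EDL arrays read 190.1, 383.0, 35.3 and 195.6 units at 6 months, 57.8, 59.4, 182.3 and 51.9 units at 18 months, and 659.8, 728.5, 539.6 and 634.9 units at 30 months. Every EDL array at 30 months lay above every EDL array at 6 or 18 months and within or near the EOM range of 474.7 to 665.4 units.

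The other Fst probe set, rc_AA858520_g_at, gave the same order of EDL groups. Its EOM arrays read 447.2, 495.3, 608.9 and 570.8 units at 6 months, 387.3, 478.9, 464.0 and 311.0 units at 18 months, and 433.4, 471.6, 567.9 and 335.5 units at 30 months. Its EDL arrays read 223.8, 229.5, 156.6 and 210.7 units at 6 months, 137.6, 168.7, 208.2 and 105.2 units at 18 months, and 372.5, 642.2, 565.7 and 480.8 units at 30 months. The lowest EDL array at 30 months, 372.5 units, lay above the highest at 6 months, 229.5 units.

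In EDL the difference for 30 against 6 months was 2.09 (SE 0.45) on the log2 scale on rc_AA858520_at, 4.25-fold, and 1.32 (SE 0.23) on rc_AA858520_g_at, 2.49-fold. For 30 against 18 months the differences were 3.08 and 1.75, or 8.44-fold and 3.36-fold. Of all probe sets, 1.86 percent were called for 30 against 6 months in EDL and 1.55 percent for 30 against 18 months. The size on the first of the probe sets depended on the replicates, since 30 minus 6 months was 1.36 in replicates 1 and 2 and 2.82 in replicates 3 and 4. Replicate 3 at 6 months, 35.3 units, was just above its array's floor of 34.5 units, and the coefficient of variation at 6 months was 70.8% on rc_AA858520_at and 16.2% on rc_AA858520_g_at. For 18 against 6 months in EDL the arrays overlapped on both probe sets, with differences of -0.99 and -0.43, and the first was -2.20 in replicates 1 and 2 and 0.23 in replicates 3 and 4.

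**Figure D2:**
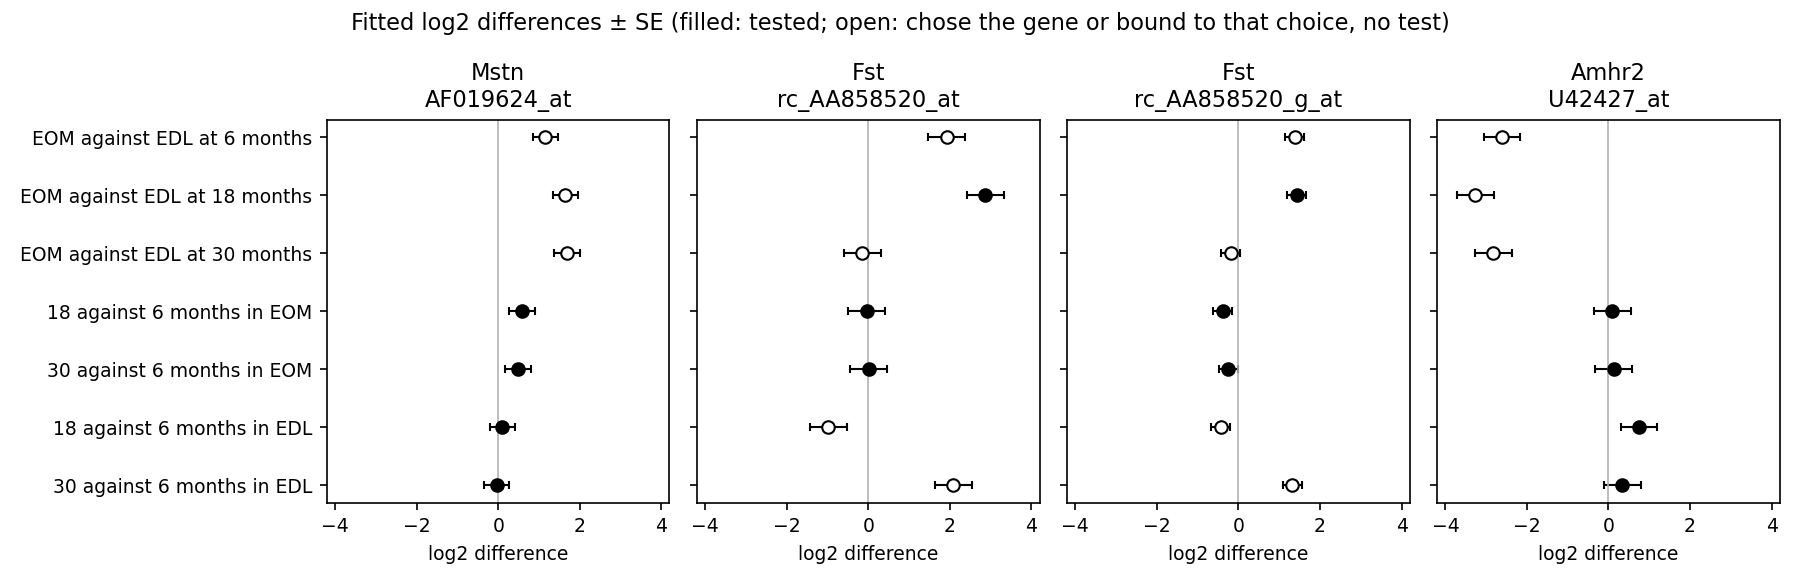
Fitted log2 differences (horizontal axis) of the 4 probe sets for EOM minus EDL at each age and for 18 and 30 minus 6 months in each muscle, with bars of 1 SE. Filled points were tested, and open points either chose the gene or are bound to that choice, so they carry no test. Filled points lie well away from 0 for Fst in EOM against EDL at 18 months, at 2.87 and 1.43.

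The muscles could be tested for Fst at 18 months, with arrays that the choice of the gene did not use. Fst was higher in EOM there, at 556 ± 81.6 units in EOM and 87.8 ± 63.0 units in EDL (SD, n = 4 each) on rc_AA858520_at. The difference was 2.87 (SE 0.45) on the log2 scale, 7.31-fold, with a limma adjusted p of 4.41e-05. On rc_AA858520_g_at the means were 410.3 ± 77.4 units in EOM and 155 ± 44.0 units in EDL, with a difference of 1.43 (SE 0.23), 2.69-fold, and an adjusted p of 6.73e-05. In this comparison 23.4 percent of all probe sets were called, and Fst was called on both probe sets under each of the 20 alternative settings, with adjusted p-values from 2.22e-06 to 0.0478 on the first and from 1.34e-05 to 0.0447 on the second. At 6 months EOM minus EDL was 1.93 and 1.38 without overlap. On rc_AA858520_at it was 1.03 in replicates 1 and 2 and 2.83 in replicates 3 and 4, and on rc_AA858520_g_at 1.05 and 1.70 in the same order. At 30 months EOM minus EDL was -0.15 and -0.19 with overlap. Other markers differed between the muscles at 18 months without overlap, beside the extraocular markers given above. The 7 connective tissue markers, all measured, summed to 28698 to 36373 units in EOM and 9913 to 18203 units in EDL. The nerve markers summed to 5710 to 6255 units in EOM and 941 to 1260 units in EDL. The gland and epithelium markers, described below, summed to 3619 to 34496 units in EOM and 354 to 682 units in EDL. The denervated-fibre markers summed to 5475 to 5902 units in EOM and 1797 to 3362 units in EDL. Muscle fibre markers went the other way, at 136038 to 182814 units in EOM and 200372 to 285900 units in EDL. No connective tissue marker was at the floor on all arrays of a group, and the part of these markers in the Fst difference was not tested.

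Within EOM no age difference in Fst passed the test. For 30 against 6 months the difference was 0.01 on rc_AA858520_at (95% interval -0.93 to 0.94, limma adjusted p = 1) and -0.25 on rc_AA858520_g_at (95% interval -0.73 to 0.24, adjusted p = 1). For 18 against 6 months it was -0.04 and -0.38, with an adjusted p of 0.999 on both, and for 30 against 18 months 0.05 and 0.14. The arrays of the 3 ages overlapped on both probe sets. Deviations of the 2 Fst probe sets from their group means correlated at 0.568 over the 24 arrays, which share their hybridisation.

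Summed markers of denervated fibres and of gland were high in EDL at 30 months together with Fst. The 7 denervated-fibre markers, all measured and including the embryonic acetylcholine receptor subunit Chrng and the muscle transcription factor Myog, summed to 1332 to 4858 units in EDL at 6 months, 1797 to 3362 units at 18 months and 9868 to 17304 units at 30 months. In EOM their sum was 4687 to 6595 units over all ages. The 8 gland and epithelium markers, all measured, summed in EDL to 311 to 774 units at 6 months with the keratin Krt19 at the floor on all arrays, 354 to 682 units at 18 months with Krt18 and the salivary gene Spt1 at the floor, and 2870 to 7431 units at 30 months. The gland sum in EDL was mostly Klk1, on probe set M19647_i_at, at a mean of 3509 units at 30 months and 162 units at 6 months. Krt18 averaged 173 units at 30 months and 11.5 units at 6 months, Krt8 129 and 19.0 units, and the claudin Cldn3 129 and 54.1 units. Other gland genes differed little or lay near the floor, with Aqp5 at 155 units at 30 months and 111 units at 6 months, Smr3b at 69.5 and 93.8 units, Krt19 at 37.5 and 12.7 units, and Spt1 at 28.9 and 21.1 units. In EOM the gland sum ran from 3619 to 34496 units. The part of either in the Fst values was not tested.

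**Figure D3:**
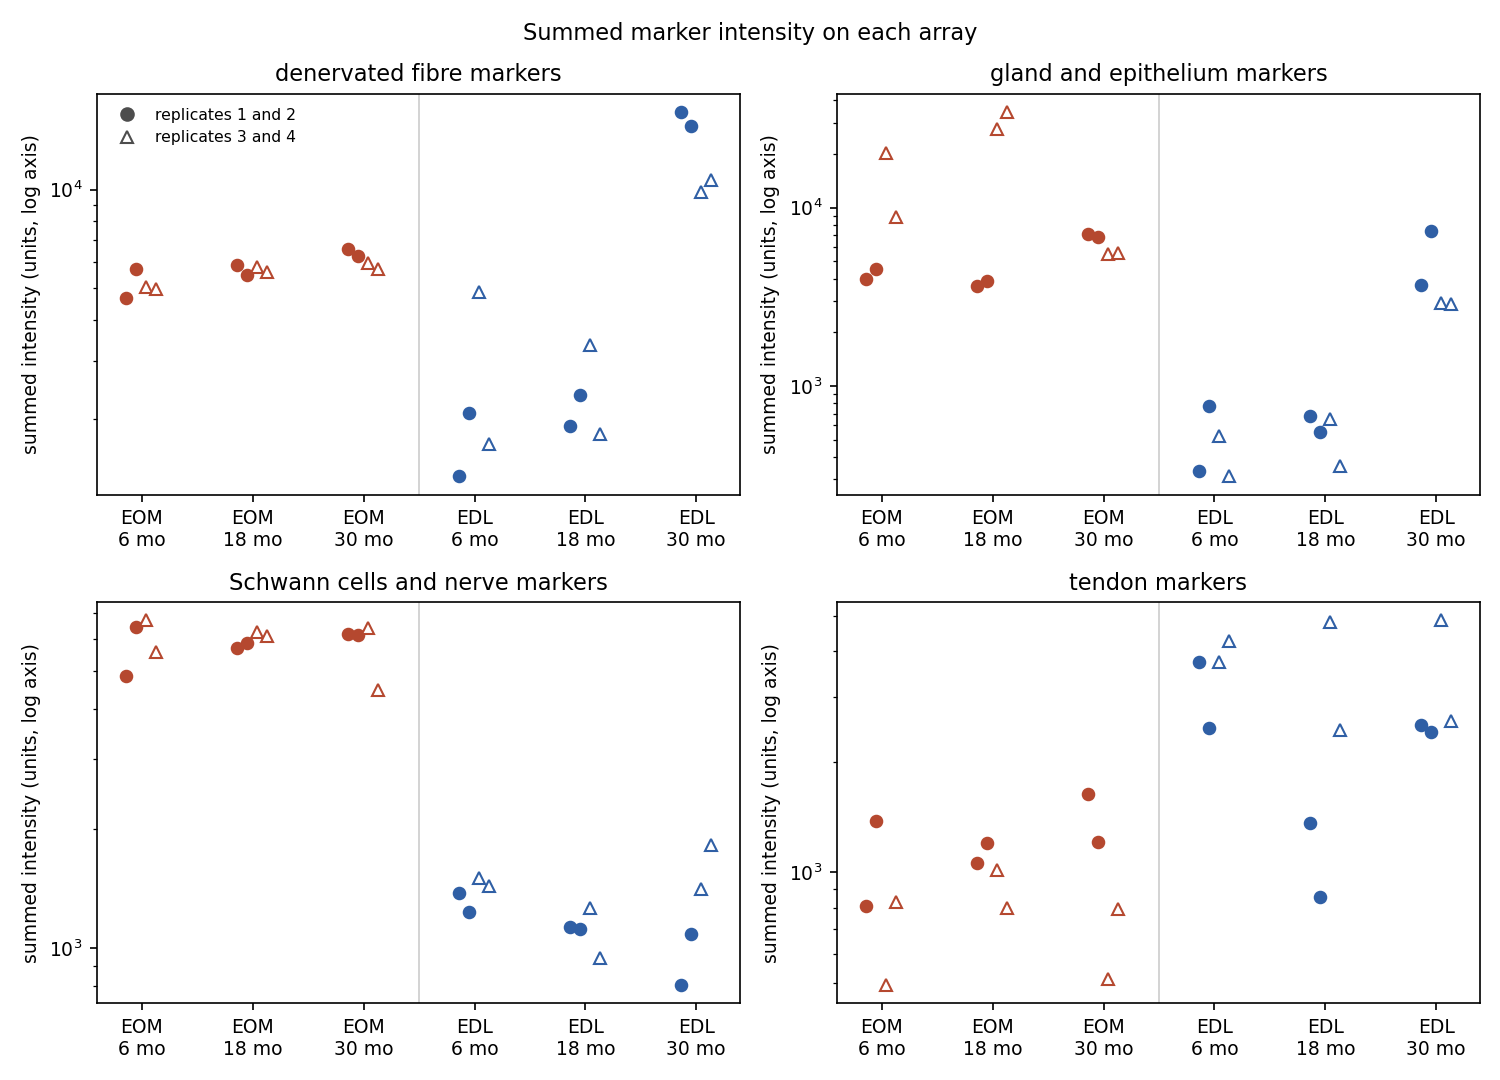
Summed intensity (arbitrary units, logarithmic vertical axis) of marker genes of denervated fibres, gland and epithelium, Schwann cells and nerve, and tendon on each array, EOM in red and EDL in blue, with replicates 1 and 2 as filled circles and 3 and 4 as open triangles. The denervated-fibre and gland sums are higher on every EDL array at 30 months than on any EDL array at 6 or 18 months, and the nerve sum is higher on every EOM array than on any EDL array.

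Amhr2 showed the opposite order of the muscles, with signal in EDL and almost none in EOM. The EOM arrays read 14.3, 32.3, 13.2 and 7.4 units at 6 months, 10.4, 9.0, 36.4 and 12.7 units at 18 months, and 10.9, 24.9, 34.5 and 36.0 units at 30 months. The EDL arrays read 275.1, 375.1, 63.1 and 126.4 units at 6 months, 381.8, 370.0, 174.8 and 262.6 units at 18 months, and 356.2, 339.8, 99.4 and 175.3 units at 30 months. The highest EOM array, 36.4 units, lay below the lowest EDL array, 63.1 units. In all, 8 of 12 EOM arrays and 0 of 12 EDL arrays were at or below the floor, so Amhr2 passed the filter on low values through EDL alone.

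On the floored log2 scale EOM minus EDL for Amhr2 was -2.90 (SE 0.26) as the mean over ages, 7.45-fold lower in EOM. It was -2.61 at 6 months, -3.26 at 18 months and -2.82 at 30 months, or 6.10-fold, 9.59-fold and 7.06-fold lower. The floor shrinks these folds, and with a floor at the 10th percentile the mean over ages was -3.66. At every age EDL replicates 1 and 2, 275.1 to 381.8 units over the ages, lay above replicates 3 and 4, 63.1 to 262.6 units. Of 5741 probe sets, 97 (1.69%) had all 6 EDL arrays of replicates 1 and 2 above all 6 of replicates 3 and 4, and 264 (4.60%) had them all below. EOM minus EDL was -3.73 in replicates 1 and 2 and -2.07 in replicates 3 and 4, so the direction was shared and the size was not. The beta-actin ratios given above differed between the same replicates, and in EDL replicates 1 and 2 they were higher than on most EOM arrays. Their part in Amhr2 was not tested.

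No age difference in Amhr2 passed the test. In EDL the means were 209.9 ± 141, 297 ± 97.7 and 243 ± 126 units at 6, 18 and 30 months (SD, n = 4 each). The difference was 0.34 for 30 against 6 months (95% interval -0.59 to 1.27, limma adjusted p = 0.925) and 0.74 for 18 against 6 months (95% interval -0.18 to 1.67, adjusted p = 0.783). In EOM, with 8 of 12 arrays at the floor, the floor set the age differences, and nothing is read from their tests or from the comparison of age changes between muscles. For 30 against 6 months the EOM change minus the EDL change was -0.21 with the floor used here and 0.36 with a floor at the 10th percentile. The arrays of the 3 ages overlapped in both muscles.

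Amh, the ligand of Amhr2, was measured at a mean of 215 units in EOM and 238 units in EDL, with a difference of -0.12 (limma adjusted p = 0.524). The 7 markers of gonadal support cells, all measured and including Amh, the aromatase gene Cyp19a1 and the steroid synthesis genes Star and Cyp11a1, summed to 560.4 to 1441 units in EOM and 949 to 1508 units in EDL, and the ranges overlapped. Cyp11a1 was at the floor on all EDL arrays at 6 months, and Cyp19a1 on all EDL arrays at 18 and 30 months. In EOM Cyp11a1 was at the floor on all arrays at 6 and 18 months, Cyp19a1 at 6 and 30 months, and Star at 18 and 30 months. At 6, 18 and 30 months Fshr averaged 263, 299 and 251 units in EDL and 164, 221 and 207 units in EOM. Lhcgr averaged 207.5, 300.5 and 145 units in EDL and 103, 109 and 165 units in EOM. Inha went the other way, at 449, 384 and 434 units in EDL and 462, 553 and 496 units in EOM. The 3 measured tendon markers, of 5 listed, summed to 494 to 1632 units in EOM and 856 to 4854 units in EDL. The part of tendon or of the gonadal markers in the Amhr2 values was not tested.

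The rest of the TGF-beta family was followed through 5 lists, of ligands, receptors, extracellular binders and processing enzymes, Smads, and target genes. Of 85 genes listed beside Mstn, Fst and Amhr2, 53 were on the array and 40 were tested, each by its brightest probe set. As the mean over ages 13 were higher in EOM, 9 were lower and 18 were not called, against 23.4 percent higher and 20.0 percent lower among the 3415 genes tested. The median EOM minus EDL difference was -0.003 over the lists and -0.044 over all genes. Called genes of the lists thus lay in both directions. At 6 months 7 genes were called higher in EOM and 1 lower, against 12.3 percent and 6.44 percent of all genes. At 18 months 12 were higher and 0 lower, against 15.1 percent and 9.02 percent, and at 30 months 8 were higher and 4 lower, against 12.2 percent and 8.02 percent.

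Among the ligands 3 of 10 were higher in EOM and 0 lower, with a median of 0.12. Bmp4, a ligand of the BMP branch, averaged 99.1 units in EOM and 35.7 units in EDL, a log2 difference of 1.32 (SE 0.20, limma adjusted p = 8.86e-06). Its EDL level was near background, with 5 of 12 EDL arrays at the floor and 1 of 12 above the filter, so Bmp4 was tested through EOM and the floor shrinks its difference. Tgfb1, the founding TGF-beta, was higher by 1.12 (SE 0.30, adjusted p = 0.00417), and its difference was 0.26 (adjusted p = 0.448) in replicates 3 and 4 alone. By age Tgfb1 differed by 0.895, 1.90 and 0.58 at 6, 18 and 30 months, and was called at 18 months only (limma adjusted p = 0.00963). The called ligand Gdf10, at 0.58 (adjusted p = 0.0421), lost its call without 1 array in 16 of 24 cases and was at 0.05 (adjusted p = 0.884) in replicates 3 and 4. Inhba, which encodes the subunit of activin A, was at 150.4 units in EOM and 229 units in EDL without passing the test (-0.53, adjusted p = 0.0566); it was singled out for its role after its values were seen.

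Among the receptors 1 of 7 was higher in EOM and 2 were lower. Acvr1b, the activin type 1 receptor through which myostatin and activin signal, was lower in EOM, at 136 units in EOM and 220.2 units in EDL (-0.60, SE 0.21, limma adjusted p = 0.0253). Acvr2a, an activin type 2 receptor, was lower at 55.6 units in EOM and 85.7 units in EDL (-0.59, SE 0.21, adjusted p = 0.0284). Both calls were close to the threshold: Acvr1b lost it without replicate 3 or replicate 4 of EDL at 30 months, at an adjusted p of 0.0517 to 0.0523, and Acvr2a without 1 array in 7 of 24 cases, at 0.0524 to 0.0559. In replicates 1 and 2 alone the adjusted p was 0.324 for Acvr1b and 0.0953 for Acvr2a, and in replicates 3 and 4 it was 0.343 for Acvr2a. Only 2 of 12 EOM arrays were above the filter for Acvr2a, so it was tested through EDL, the muscle where it was higher. Acvr2b, the other activin type 2 receptor and, like Inhba, singled out for its role, differed by -0.25 (adjusted p = 0.152). Acvrl1, a type 1 receptor of endothelial cells, was the receptor higher in EOM, at 0.73 (adjusted p = 0.000574, and 0.056 in replicates 1 and 2).

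**Figure D4:**
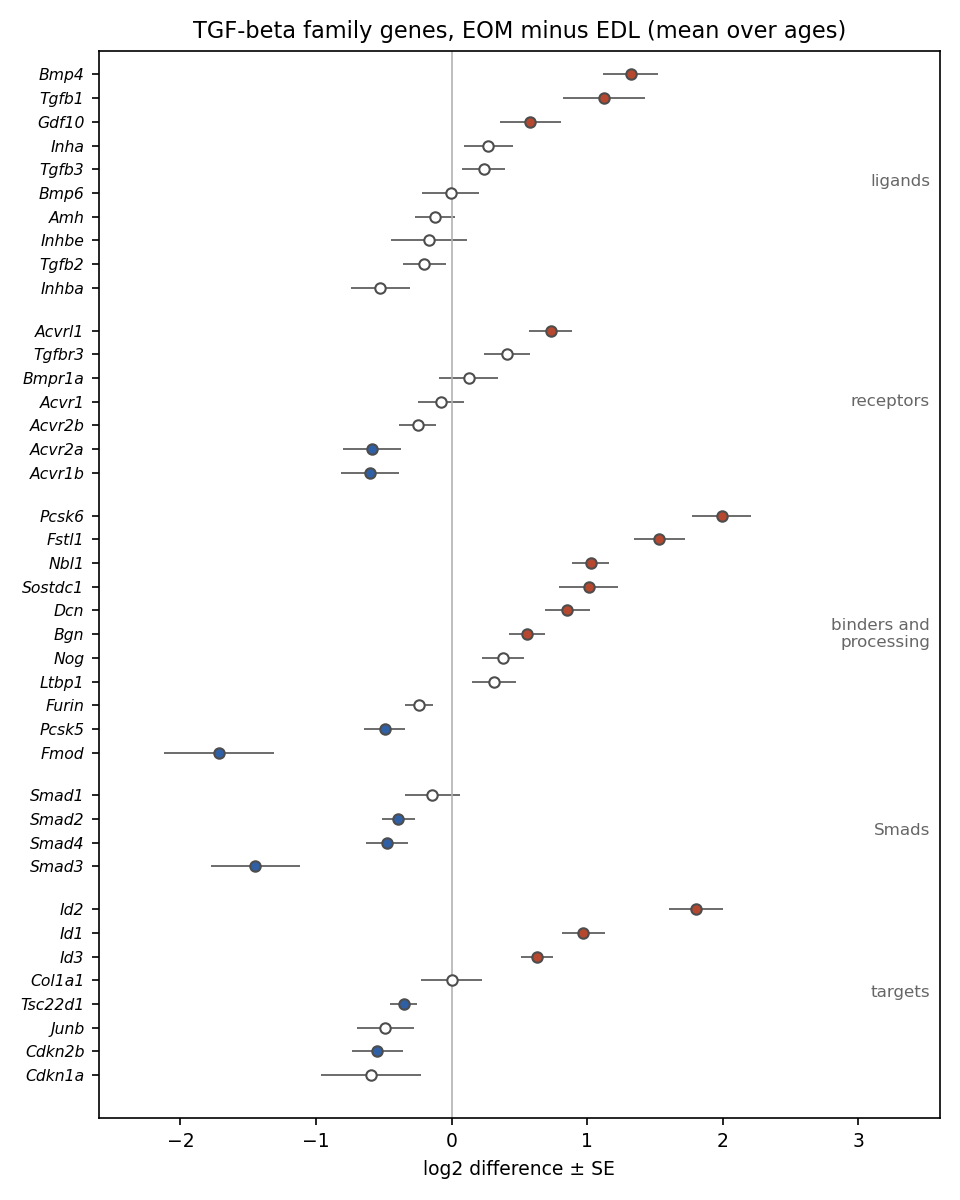
Log2 difference of EOM minus EDL, mean over ages (horizontal axis, bars 1 SE), for the 40 tested genes of the TGF-beta lists, grouped by role. Red points were called higher in EOM, blue points lower, and open points were not called. Called binders lie mostly to the right, with Pcsk6 at 1.99 and Fstl1 at 1.53, and the called Smads lie to the left, with Smad3 at -1.45.

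Of the extracellular binders and processing enzymes 6 of 11 were higher in EOM and 2 lower, with a median of 0.56. Pcsk6, a proprotein convertase, averaged 843 units in EOM and 223 units in EDL, a difference of 1.99 (SE 0.22, limma adjusted p = 6.17e-08), and its other probe set gave 2.05. Fstl1, a secreted relative of follistatin, was higher by 1.53 (SE 0.19, adjusted p = 4.1e-07). The BMP antagonists Nbl1 and Sostdc1 were higher by 1.03 (adjusted p = 1.24e-06) and 1.01 (adjusted p = 0.000561). Dcn and Bgn, matrix proteoglycans that bind TGF-beta, completed the 6 at 0.85 and 0.56. In replicates 3 and 4 alone Dcn was at 0.42 (adjusted p = 0.123) and Bgn at 0.24 (adjusted p = 0.322). By age Bgn differed by 0.25, 1.12 and 0.30 at 6, 18 and 30 months, and was called at 18 months only (limma adjusted p = 0.000722). Dcn is also among the connective tissue markers given above. Fmod, the tendon proteoglycan fibromodulin, was lower at 242 units in EOM and 1002 units in EDL (-1.72, SE 0.41, adjusted p = 0.00136), and its other probe set gave -1.04 (adjusted p = 0.0503). Fmod is also among the tendon markers given above. Pcsk5, another convertase, was lower, at -0.49 (adjusted p = 0.00999, and 0.221 in replicates 1 and 2), and Furin, a convertase singled out for its role, differed by -0.24 (adjusted p = 0.0689). By age Pcsk5 differed by -0.88, -0.25 and -0.35 at 6, 18 and 30 months, and was called at 6 months only (limma adjusted p = 0.0189).

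Of the 4 Smads tested 3 were lower in EOM and 0 higher as the mean over ages, against 20.0 percent lower and 23.4 percent higher of all genes. At 6 and 18 months 0 of the 4 were called, and at 30 months 1 was lower. Smad3, which carries the myostatin signal, averaged 78.3 units in EOM and 236 units in EDL, a difference of -1.45 (SE 0.33, limma adjusted p = 0.000895). Its partner Smad4 differed by -0.48 (adjusted p = 0.0147) and Smad2 by -0.39 (adjusted p = 0.0107), while the other Smad2 probe set gave -0.19 (adjusted p = 0.184). Neither Smad2 nor Smad4 was called in replicates 1 and 2 alone or in replicates 3 and 4 alone, at adjusted p-values of 0.0619 and 0.183 for Smad2 and 0.0771 and 0.08 for Smad4. By age Smad3 differed by -0.94, -1.35 and -2.05 at 6, 18 and 30 months (limma adjusted p = 0.29, 0.0895 and 0.0117). Only 6 of 12 EOM arrays were above the filter for Smad3.

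Among the target genes 3 of 8 were higher in EOM and 2 lower. Id2, Id1 and Id3 encode inhibitors of basic helix-loop-helix factors and are targets of BMP signals. Id2 averaged 415 units in EOM and 121 units in EDL, a difference of 1.80 (SE 0.20, limma adjusted p = 7.37e-08). Id1 was higher by 0.97 (adjusted p = 2.55e-05), although its other probe set gave -0.16 (adjusted p = 0.54), and Id3 was higher by 0.63. The cyclin-dependent kinase inhibitor Cdkn2b was lower, at -0.55 (adjusted p = 0.0209), and Tsc22d1, a TGF-beta-induced leucine zipper gene, was lower at -0.35. In replicates 1 and 2 alone the adjusted p was 0.234 for Cdkn2b and 0.313 for Tsc22d1, and in replicates 3 and 4 it was 0.0538 for Cdkn2b. By age the Cdkn2b difference was -0.03 at 6 months, -0.39 at 18 months and -1.23 at 30 months. It was called at 30 months only (limma adjusted p = 0.00839).

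In EDL 2 of the 40 genes were higher at 30 than at 6 months and 1 was lower, against 1.41 percent higher and 0.293 percent lower of all genes. Ltbp1, which holds latent TGF-beta in the matrix, averaged 769 units at 30 months and 326 units at 6 months, a difference of 1.30 (SE 0.28, limma adjusted p = 0.00916). Cdkn1a, the cell cycle inhibitor p21, averaged 768 units at 30 months and 151 units at 6 months, a difference of 2.68 (SE 0.64, adjusted p = 0.0219), with 4.21 (adjusted p = 5.22e-05) on its other probe set. Col1a1, the type I collagen chain, was lower at 2667 units at 30 months and 7037 units at 6 months (-1.60, SE 0.39, adjusted p = 0.0233). Its other probe sets gave -1.91, -2.49 and -1.98 (limma adjusted p = 0.00701, 0.00274 and 0.00625). It is itself a connective tissue marker, and that list summed to 10559 to 24699 units at 30 months and 23261 to 38013 units at 6 months in EDL. The collagen genes Col1a2 and Col3a1 averaged 1359 and 1067 units at 30 months and 5407 and 3832 units at 6 months, and the part of connective tissue cells in the Col1a1 difference was not tested. On the brightest probe sets, leaving out 1 array ended the call of Cdkn1a in 5 of 8 cases (replicates 1 and 2 at 6 months, and 1, 3 and 4 at 30 months, at an adjusted p of 0.053 to 0.105). It ended that of Col1a1 in 4 of 8 (replicates 2 and 4 at 6 months, and 1 and 2 at 30 months, at 0.0647 to 0.142). A fit on the EDL arrays alone ended the calls of Ltbp1 (adjusted p = 0.0567) and Col1a1 (adjusted p = 0.149).

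In EOM 0 of the 40 genes were called in either direction for 30 against 6 months by limma, as were 0 percent of all genes. An unadjusted p under 0.05 was reached by 1 of the 40 genes and by 74 of the 3415 genes tested. Ltbp1 differed by -0.24 and Cdkn1a by 0.08 in EOM, each with an adjusted p of 1. The other Cdkn1a probe set gave 1.02 there and was not called. Col1a1 averaged 2022 units at 30 months and 5627 units at 6 months, a difference of -1.47 (adjusted p = 0.46). The connective tissue markers summed to 15849 to 32822 units at 30 months and 28191 to 48136 units at 6 months in EOM. With the replicate number as a block, the SE of Col1a1 was 0.26 and its limma adjusted p was 0.0236, so it passed the threshold there. Same-numbered EOM arrays at 30 and 6 months correlated at 0.141 to 0.527, but differently numbered ones reached 0.236. Of the 4 numbers, 3 correlated best with their own number at these ages. The titles do not say what a number marks, so Col1a1 is given both without and with the block. When the EDL change was subtracted from the EOM change over the same ages, 0 of the 40 genes were called and 3 had an unadjusted p under 0.05. Of the 3415 genes tested, 0 were called higher and 7 lower, and 158 had an unadjusted p under 0.05.

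**Figure D5:**
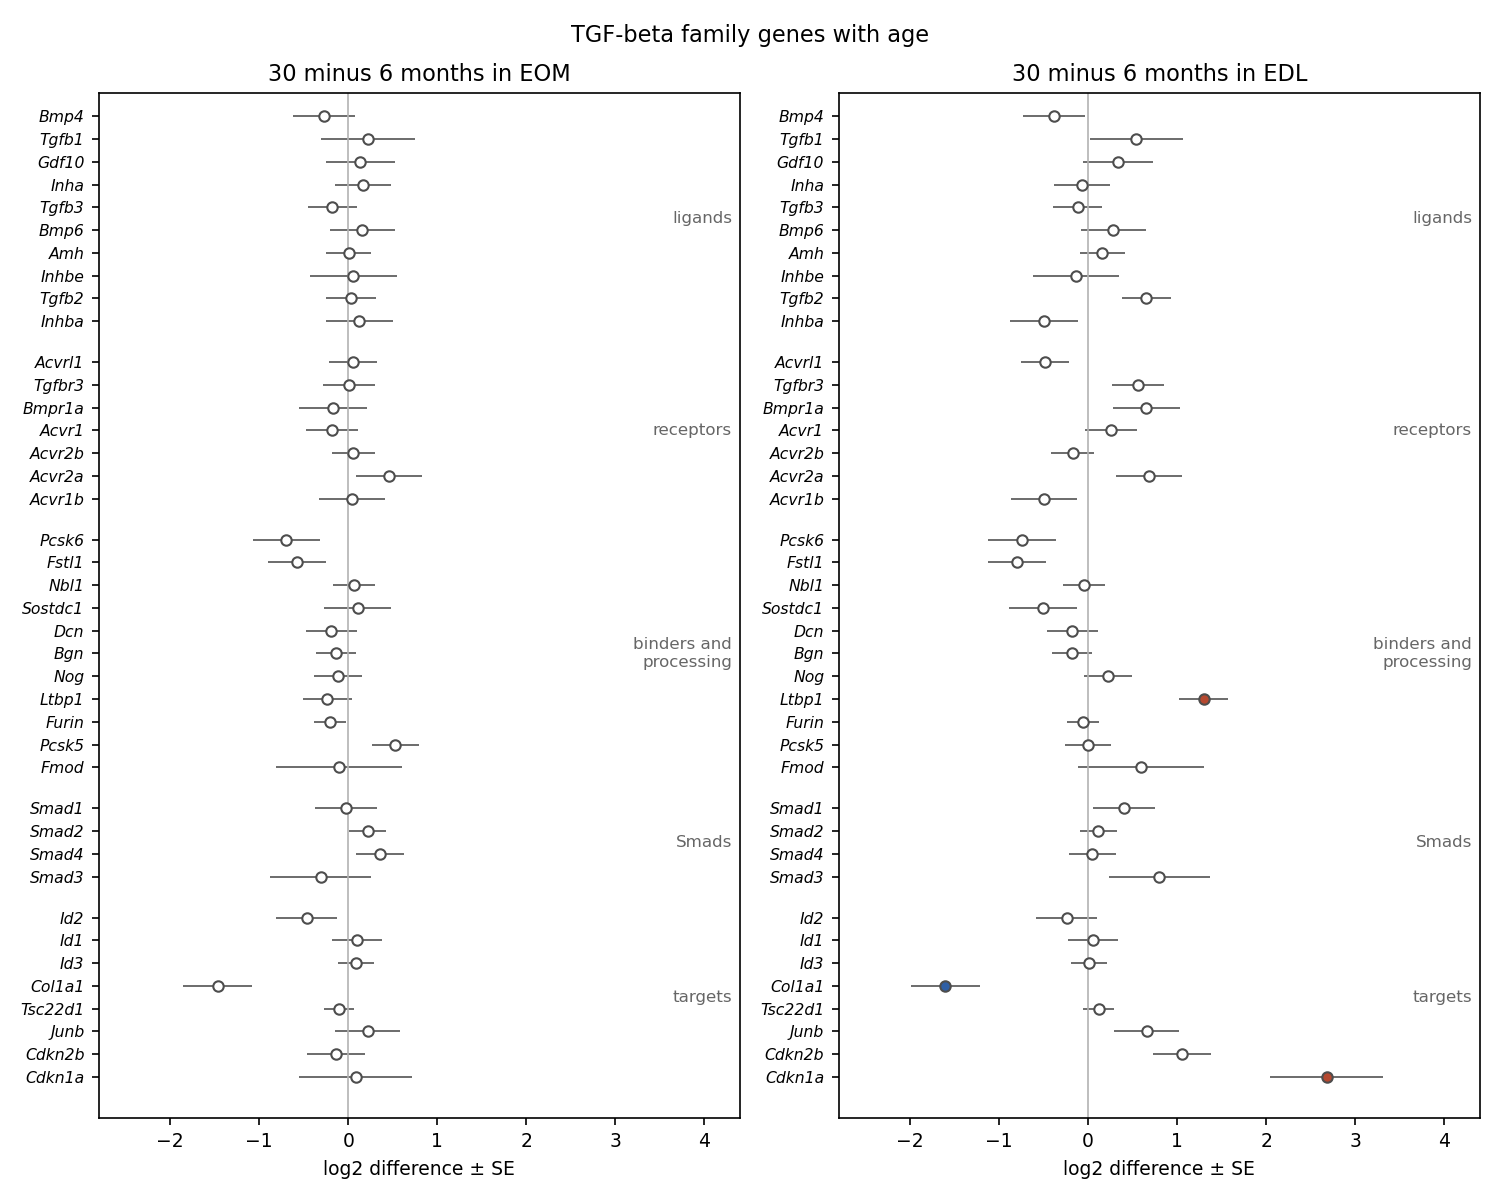
Log2 difference of 30 minus 6 months in EOM (left) and in EDL (right) for the 40 tested genes of the TGF-beta lists (horizontal axis, bars 1 SE), grouped by role. Red points were called higher at 30 months, blue points lower, and open points were not called. In EDL the called genes are Ltbp1 at 1.30, Cdkn1a at 2.68 and Col1a1 at -1.60, and in EOM every point is open.

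The genes whose log2 levels followed each of the 3 most closely over the 24 arrays are given as a description, since the arrays fall into 6 groups and the correlation mostly follows the group means. For Mstn they were Gpc3, a cell surface proteoglycan, at r = 0.911, Plpp3 at 0.906, Ndrg4 at 0.901, the kinase gene Stk39 at 0.895 and the Schwann cell gene S100b at 0.892. In EOM the Gpc3 means were 423, 563 and 468 units at 6, 18 and 30 months, and in EDL they were 57.1, 51.8 and 56.5 units. S100b is one of the nerve markers given above.

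For Fst, on rc_AA858520_at, the 5 genes were the kallikreins Klk1 at r = 0.876 and Klk1c3 at 0.835, the kinase gene Sgk1 at 0.828, the fatty acid desaturase gene Scd at 0.821 and the tetraspanin gene Cd82 at 0.802. The Klk1 probe set here was M19647_f_at. In EOM its means were 819, 833 and 1275 units at 6, 18 and 30 months, and in EDL they were 129.7, 126 and 1036 units. Klk1 is one of the gland markers, where it was read on the brighter probe set M19647_i_at. The probe sets behind these correlations, M19647_f_at for Klk1 and M26534_f_at for Klk1c3, are of a type that can detect several members of the family. Sgk1 averaged 449.6, 451 and 427 units in EOM and 267, 239 and 531 units in EDL, so its 30 month EDL level was, as for Fst, the highest of the EDL ages.

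For Amhr2 the 5 were Aldh1l1, a folate enzyme, at r = 0.958, Rps2-ps1 at 0.955, the phosphatase inhibitor gene Ppp1r1a at 0.945, the growth hormone receptor Ghr at 0.943 and the fast myosin-binding protein gene Mybpc2 at 0.94. Mybpc2 averaged 6313, 7174 and 8038 units in EOM and 19008, 22601 and 18957 units in EDL at 6, 18 and 30 months. Deviations from the group means correlated at -0.483 between Mstn and Amhr2, with a rank correlation of -0.334. For Fst and Amhr2 the correlation was 0.473 on rc_AA858520_at, with a rank correlation of 0.203, and 0.088 on rc_AA858520_g_at. For Mstn and Fst it was -0.024 on rc_AA858520_at and 0.277 on rc_AA858520_g_at. All genes share the hybridisation of an array, and Amhr2 was at the floor on 8 of 12 EOM arrays.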

How the data were processed

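The deposited table holds a linear intensity for each probe set on each array, from Affymetrix Microarray Suite 5.0 per the submitters' processing notes and the series' design text. All 24 arrays had the same trimmed mean, and no further scaling was applied. The labels name a pair of dyes and the design text a biotin stain, and with 1 value per probe set the arrays were treated as 1-colour. After 59 controls were removed, values were floored at the 25th percentile of their array (21.4 to 34.5 units) and put on the log2 scale. Tests covered the 5741 of 8740 probe sets that were above the 40th percentile of the array on 3 or more arrays of some group. Group means for the 6 groups were estimated with limma 3.58.1 in R 4.3.3 (lmFit, eBayes with trend, 18 residual degrees of freedom before moderation). Two-sided p-values were adjusted by the Benjamini-Hochberg method across every probe set in the fit, and called means an adjusted p under 0.05. The code was tested on simulated data. No column of the value table was left unused.

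The 3 genes, the 5 pathway lists and the marker lists were chosen with earlier results of these data known. Pathway genes are named where they are among the 8 largest rises or falls called in the muscle comparison or for 30 against 6 months in a muscle. Others in the text complete a count or were singled out for their role, after values were seen. Likeness is Pearson's r over the 24 arrays, with the 5 highest genes given. Gene symbols are those of the platform annotation. Probe positions are not given, since the files name no genome build.

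Replicate numbers come from the sample titles, which do not say that a number marks a shared animal or day. Replicate 3 had the highest median of the 4 arrays in every group, at 128.25 to 136.8 units. What this marks was not tested. Deviations of same-numbered arrays from their group means correlated above 0.1 for every pair between EOM and EDL at 6 months, between EDL at 30 and 6 months (0.123 to 0.331), and between the ages of EOM (0.141 to 0.527 for 30 and 6 months). They did not for EOM and EDL at 18 or 30 months (lowest 0.062 and 0.079), or for EDL at 18 months with the other EDL ages. Differently numbered arrays reached 0.156 for EOM and EDL at 6 months and 0.175 for EDL at 30 and 6 months. In EOM they reached 0.236 for 30 and 6 months and 0.238 for 18 and 6 months. For EOM at 30 and 18 months the lowest same-numbered value, 0.163, lay above the highest differently numbered one, 0.117. Alternatives were other floors, filters, scalings and variance settings, a replicate block, fits on 1 muscle or age alone, either set of replicates alone, and each array left out.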

Additional observations from a re-analysis of the deposited data

Results flagged for a closer look

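Among the 24 combinations of probe set and group checked for a lone array, 3 had 1 array whose gap to the others took up more of the range than Dixon's 95% value allows, where chance gives about 1 in 20. On the Fst probe set rc_AA858520_at, replicate 3 of EOM at 6 months read 643.1 units against 540.0 to 555.3 units on the others. On the same probe set, replicate 3 of EDL at 18 months read 182.3 units against 51.9 to 59.4 units. For Amhr2, replicate 3 of EOM at 18 months read 36.4 units against 9.0 to 12.7 units, all near or below the floor.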

How the results depend on the processing

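Most results kept their direction and their side of the threshold. No tested age difference of Mstn or Fst, or of Amhr2 in EDL, was called under any alternative. The floor set the age differences of Amhr2 in EOM, so nothing is read from those or from its comparison of age changes. For Amhr2 in EOM against EDL, a floor at the 10th percentile moved the log2 difference to -3.66 as the mean over ages and -4.30 at 18 months, and the mean was -3.73 in replicates 1 and 2 and -2.07 in replicates 3 and 4. For Fst on rc_AA858520_at, 30 against 6 months in EDL was 1.36 in replicates 1 and 2 and 2.82 in replicates 3 and 4, and 18 against 6 months, -0.99 on all arrays, reversed to 0.23 in replicates 3 and 4. Of the pathway genes in EDL at 30 against 6 months, the 2 higher became 1 with array weights, 1 in replicates 1 and 2, 0 in replicates 3 and 4, 1 in the fit on EDL alone and 1 to 2 with an array left out. The 1 lower became 0 with array weights, 0 in replicates 3 and 4, 0 in the fit on EDL alone and 0 to 1 with an array left out. In EOM at 30 against 6 months the 0 lower became 1 with the replicate block. Between the muscles the 9 lower became 2 in replicates 1 and 2, and the replicate block made the counts 16 higher and 13 lower, adding 7 calls, among them Inhba (adjusted p = 0.0112), Acvr2b (0.046) and Furin (0.0446). The replicate block changed no call of Mstn, Fst or Amhr2. The cause of these shifts was not tested, except that fits on fewer arrays have fewer samples. Over all probe sets, the calls for 30 against 6 months in EDL ran from 5 in replicates 3 and 4 to 186 in replicates 1 and 2, around 107. For EOM against EDL the lowest counts, in replicates 3 and 4, and the highest, with the replicate block, were 460 and 1446 around 1029 at 6 months, 623 and 1822 around 1343 at 18 months, and 410 and 1557 around 1103 at 30 months. The ranges were 2 to 147 around 89 for 30 against 18 months in EDL, 0 to 80 around 16 for 18 against 6 months in EDL, 0 to 44 around 10 for 18 against 6 months in EOM, 0 to 4 around 2 for 30 against 6 months in EOM, 0 to 12 around 1 for 30 against 18 months in EOM, and 1 to 34 around 11 and 0 to 3 around 0 for the interactions at 30 and 18 months. With arrays centred on their medians, the median difference of all probe sets for 30 against 6 months in EDL was -0.115, against 0.027 as deposited. Amhr2 was too dim in EOM for a fit on EOM alone. Signal near the floor limits what can be said of Amhr2 in EOM.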
